A study of Mus musculus with 12 samples.

Results

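The 10 genes H19, Afp, Gpc3, Cd24a, Sox9, Epcam, Krt19, Krt7, Krt8 and Krt18, of 56065 genes listed, are used as marks of the fetal liver, of the bile duct lining or of both. They were selected on their levels and differences between the groups in these same libraries, as earlier results had shown them, and their reads were summed over transcripts in each library. Of the 10 genes, 9 passed the low-count filter that left 13631 genes for testing, and Afp did not.

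Liver RNA was sequenced from 12 libraries in 3 groups of 4. MD+CA mice ate a diet rich in fat (40 kcal%), fructose (20 kcal%) and cholesterol (2%) that brings about metabolic dysfunction-associated steatohepatitis (MASH) in mice, and were given cinnabarinic acid, a tryptophan metabolite and ligand of the aryl hydrocarbon receptor (AhR), at 12 mg/kg in 0.2% DMSO. MD mice ate the same diet and were given the DMSO vehicle, and CD mice ate a control diet with 10 kcal% fat. Injections into the peritoneum came 3 times a week in MD+CA and MD, and none is stated or denied for CD. All mice carried floxed AhR alleles, no Cre is named in the labels, and feeding ran for 20 weeks from an age of 8 weeks. The series sets out to examine a protective effect of cinnabarinic acid in this liver disease. The labels number the libraries 1 to 4 in each group and do not say that each came from its own mouse, so every p-value below measures the spread between these libraries.

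Hepatocytes and the cholangiocytes that line bile ducts both arise from hepatoblasts, the bipotent progenitors of the fetal liver. Hepatoblasts make alpha-fetoprotein, the H19 RNA and the surface proteoglycan glypican 3, and these are switched off around birth and can return in regeneration and in liver tumours. Cholangiocytes keep Sox9, Epcam, Krt7 and Krt19, and in chronically injured liver cells with these marks multiply around the portal tracts, which is called the ductular reaction. Keratins 8 and 18 are the filament pair of every hepatocyte and are found in cholangiocytes too.

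Each library held 9089586 to 14492587 assigned reads, and levels are given as CPM, counts brought to a fixed library size after scaling between libraries. A gene with 3 reads or fewer in a library is taken here as not detected in it, and 3 reads stood for 0.203 to 0.380 CPM depending on the library. The summed CPM of 10 hepatocyte markers ran from 66430 to 82280 in MD+CA, from 41200 to 79570 in MD and from 75140 to 92490 in CD, and all 10 were above 0 in every group. The lowest of these sums was that of MD 2, the library in which the mitochondrial genes took 17.5% of reads, against 4.98% to 10.7% in the other 11. All samples are labelled male, yet Xist was at 619 to 947 CPM in the 12 libraries and Ddx3y, Kdm5d, Uty and Eif2s3y, all Y-linked, were at 0 in each. That mismatch is the same in all 3 groups. In whole liver, fewer cells of a type and less RNA per cell cannot be told apart.

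Per length, on the TPM scale, which divides by transcript length and by the library's total, the 10 genes fell into 2 classes. Krt8 averaged 117 ± 30.5 TPM and Krt18 114 ± 29.6 TPM over the 12 libraries (SD, n = 12), and the ranges of this pair overlapped. The other 8 genes stayed under both in all 12 libraries. Sox9 lay between 2.58 and 14.1 TPM, Epcam between 1.30 and 5.72 TPM and Krt7 between 0.185 and 2.17 TPM. H19 ran from 0.390 to 34.7 TPM, Krt19 from 0.533 to 17.3 TPM, Cd24a from 0.911 to 13.3 TPM and Gpc3 from 0.0711 to 1.96 TPM. Afp lay between 0 and 0.254 TPM. The spread between libraries of the same group was set beside that of all tested genes, whose median was 0.385 on the log2 scale. It was 1.55 for H19, 1.13 for Gpc3, 1.01 for Krt19 and 0.85 for Cd24a, a spread that 93.6% or more of tested genes did not reach, and it was least for Krt18, at 0.39, the middle of all tested genes.

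**Figure D1:**
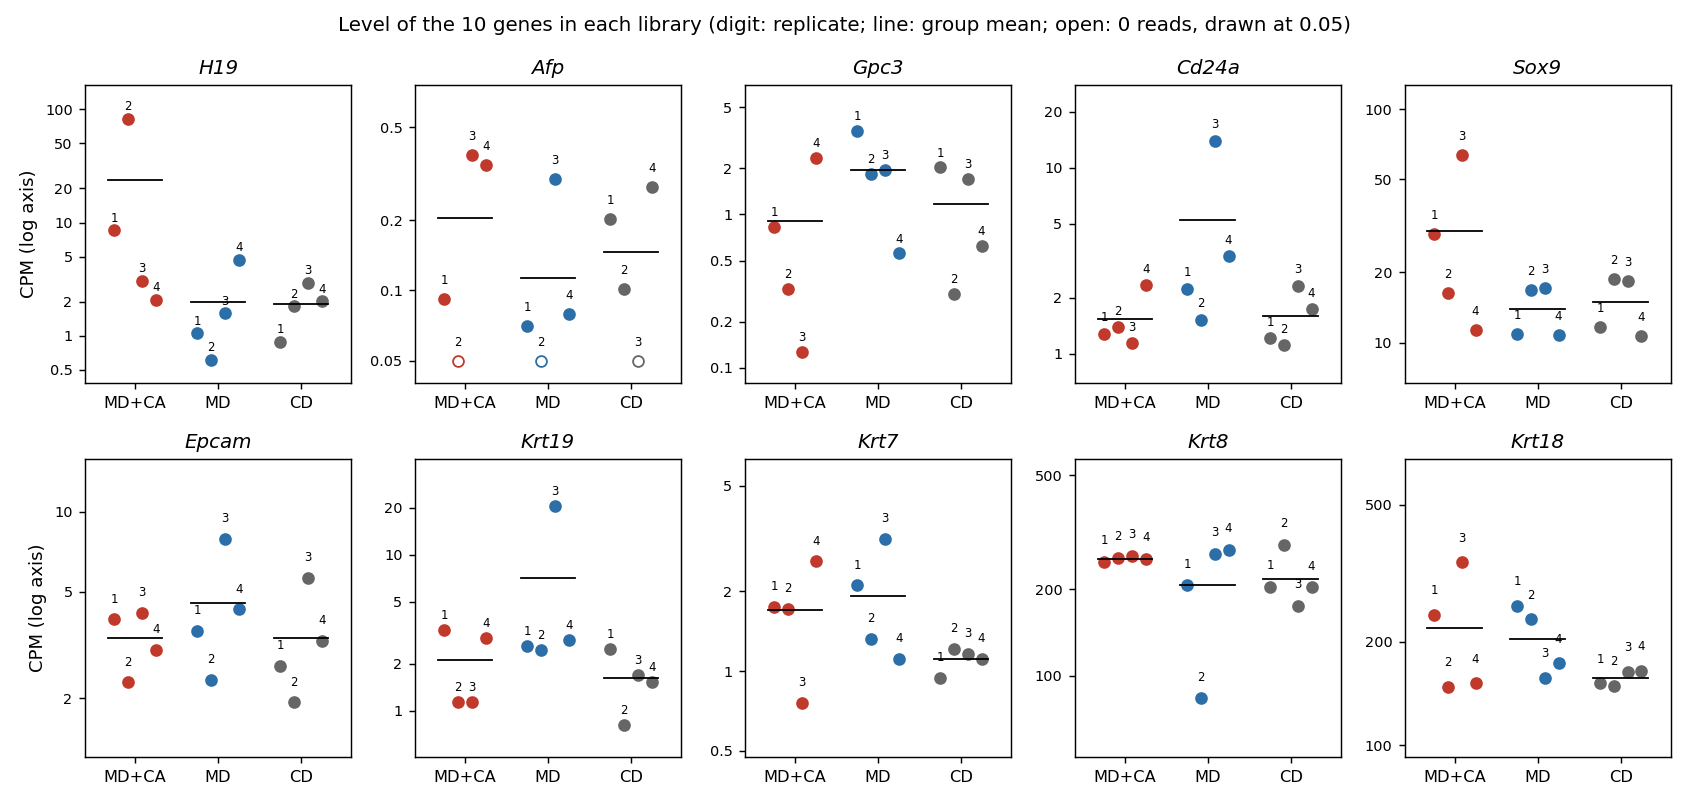
Level of each of the 10 genes in CPM on a log axis, 1 point per library, with MD+CA, MD and CD from left to right and the replicate number above each point. Lines are group means, and open points are libraries with 0 reads. H19 stands out in MD+CA 2 (82.1 CPM), Sox9 in MD+CA 3 (63.6 CPM), Cd24a and Krt19 in MD 3 (13.9 and 20.7 CPM) and Krt8 is lowest in MD 2 (83.2 CPM).

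In CPM, the groups overlapped for each of the 10 genes in all 3 comparisons. What stood out were single libraries: H19 in MD+CA 2, Sox9 in MD+CA 3 and, less, MD+CA 1, the duct genes Krt19 and Cd24a together in MD 3, and a low Krt8 in MD 2. Afp had at most 4 reads in any library. By edgeR's quasi-likelihood test with Benjamini-Hochberg adjustment over all 13631 genes, 0 of the 9 genes passed an adjusted p of 0.05 in any comparison. Of all tested genes 2.71% passed it in MD+CA against MD, 0.528% in MD+CA against CD and 0.088% in MD against CD. At an unadjusted p under 0.05 the counts were 4 of 9 for MD+CA against MD (H19, Cd24a, Sox9 and Krt19), 2 of 9 for MD+CA against CD (H19 and Sox9) and 2 of 9 for MD against CD (Cd24a and Krt19), beside 23.2%, 10.5% and 19.9% of all tested genes. DESeq2 passed Cd24a and H19 in MD+CA against MD, H19 in MD+CA against CD and Krt19 in MD against CD, 2, 1 and 1 genes, beside 9.02%, 2.46% and 4.98% of all genes with an adjusted p in DESeq2. limma voom passed 0 in each, beside 2.48%, 1.3% and 2.23% of all tested genes. The libraries of the groups overlapped for all 10 genes in every comparison, so 0 of 10 were apart, where 10.2% of tested genes were apart between MD+CA and MD, 6.4% between MD+CA and CD and 13.1% between MD and CD. The median log2 fold change of the 9 genes was -0.16 for MD+CA against MD, 0.37 for MD+CA against CD and 0.43 for MD against CD, and over all tested genes it was -0.003, 0.016 and 0.043. Since the genes were picked with these data known, the counts describe them and no test is drawn from them. The comparisons share groups, so their values are not independent of each other.

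H19 is an imprinted long noncoding RNA, abundant in fetal liver and low in the adult organ. It had 93, 1003, 24 and 24 reads in MD+CA 1 to 4, 15, 6, 21 and 59 reads in MD 1 to 4, and 13, 18, 33 and 29 reads in CD 1 to 4. After scaling this was 8.54, 82.1, 3.04 and 2.08 CPM in MD+CA, 1.05, 0.611, 1.58 and 4.70 CPM in MD, and 0.878, 1.82, 2.95 and 2.02 CPM in CD. MD+CA 2 stood far above the other 11 libraries, MD+CA 1 was the next highest, and the other MD+CA libraries lay within the values of MD and CD. The log2 fold change was 3.58 ± 0.98 (SE) in MD+CA against MD and 3.66 ± 0.99 in MD+CA against CD, with 95% intervals of 1.49 to 5.67 and 1.55 to 5.77. Without MD+CA 2 these values were 1.19 ± 0.63 and 1.26 ± 0.63. MD against CD gave 0.08 ± 1.02, with an interval of -2.09 to 2.24. Without MD 4, the highest MD library, it turned to -0.78 ± 1.13, and MD+CA against MD was then 4.44 ± 1.14.

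The H19 reads lay almost wholly on transcripts listed as lncRNA. In MD+CA 2 the quantification put 463 reads on H19-209, 259 on H19-216, 152 on H19-215 and 107.8 on H19-202, and the listed retained-intron transcripts of H19 together took 1 read in all 12 libraries, in MD 2. How reads were divided among transcripts this alike is an estimate. Igf2, the fetal growth factor that shares its imprinted domain with H19, had 1 read in MD+CA 2 and 1 to 11 reads in each of the other 11 libraries, and it was too low to be tested. Among the genes with the pattern nearest to that of H19 were Sh3bgr, at 11.1 CPM in MD+CA 2 and at most 1.43 CPM elsewhere, Tnnt1, a troponin of slow skeletal muscle, at 47.9 CPM there and at most 9.62 CPM elsewhere, and Ubd, a ubiquitin-like protein induced by cytokines, at 14.7 CPM there and at most 3.34 CPM elsewhere. These 3 are the nearest of 11927 genes by the root mean square difference of centred log2 CPM over 12 libraries, 0.90 to 0.92, and they rest on that 1 library.

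H19 is also the precursor of miR-675, which is cut from its first exon. The 2 mature arms are given because they are the known product of the RNA that varied most here. Small RNAs were not measured in these poly(A) libraries. Both are from RefSeq, build GRCm38.p6, minus strand, at chr7:142577112-142577133 and chr7:142577078-142577099, and capitals mark the seed, bases 2 to 8, which the arms do not share.
mmu-miR-675-5p: uGGUGCGGaaagggcccacagu
mmu-miR-675-3p: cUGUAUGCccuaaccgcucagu

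Afp encodes alpha-fetoprotein, the main serum protein of the fetus, whose gene lies on chromosome 5 between Alb and Afm in RefSeq (GRCm38.p6). It had 1, 0, 3 and 4 reads in MD+CA, 1, 0, 4 and 1 reads in MD, and 3, 1, 0 and 4 reads in CD. Those 22 reads in all, every one on Afp-201, left 3 of 12 libraries above 3 reads, 1 per group. The 3 libraries with 0 reads allow up to 0.246 CPM in MD+CA 2, 0.306 CPM in MD 2 and 0.268 CPM in CD 3, counting error alone. A change of Afp between the groups was not detectable at this depth, and no fold change is given. Its neighbours in the albumin family were far above it: Afm was at 289 to 376 CPM in MD+CA, 243 to 320 CPM in MD and 351 to 479 CPM in CD. For Afm in MD against CD the log2 fold change was -0.58 ± 0.20 (edgeR adjusted p = 0.144), and DESeq2 passed it there.

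Gpc3 encodes glypican 3, a heparan sulfate proteoglycan used as a mark of liver tumours. It had 9, 4, 1 and 27 reads in MD+CA, 50, 18, 26 and 7 in MD, and 30, 3, 19 and 9 in CD. That was 0.827, 0.327, 0.127 and 2.33 CPM in MD+CA, 3.50, 1.83, 1.95 and 0.557 CPM in MD, and 2.03, 0.304, 1.70 and 0.626 CPM in CD. High and low libraries occurred in all 3 groups, MD+CA 3 and CD 2 were at or under 3 reads, and the groups overlapped. On the log2 scale the fitted change was -1.08 ± 0.73 in MD+CA against MD, with an interval of -2.63 to 0.47, -0.34 ± 0.74 in MD+CA against CD and 0.74 ± 0.71 in MD against CD. Single libraries moved these values. Without MD+CA 4 the first was -2.13 ± 0.78 and the next -1.40 ± 0.79, without MD 1 the first was -0.63 ± 0.79 and the last 0.29 ± 0.78, and without CD 1 the values against CD were 0.07 ± 0.82 for MD+CA and 1.15 ± 0.81 for MD. Of the reads, 95.2% were on Gpc3-201. The neighbouring glypican gene Gpc4 was at 27.2 to 37.9 CPM in MD+CA, 12.8 to 27.0 CPM in MD and 26.7 to 34.9 CPM in CD. Another glypican gene, Gpc6, had 1 to 9 reads in MD+CA, 3 to 13 in MD and 27 to 61 in CD. Its log2 fold change was -2.65 ± 0.58 in MD+CA against CD (edgeR adjusted p = 0.0531) and -2.30 ± 0.55 in MD against CD (edgeR adjusted p = 0.104). DESeq2 and limma voom passed Gpc6 in both. In MD against CD DESeq2 also passed Gpc1, which went the other way, at 2.49 ± 0.74 by edgeR. Gpc3 had as its nearest pattern Cpe, carboxypeptidase E, with a root mean square difference of 0.46, followed by Foxf1, a transcription factor of mesenchymal cells, and Bcam, a laminin receptor, both at 0.66. These matches rest on low levels, with Cpe at 0 to 1.64 CPM, Foxf1 at 0.25 to 2.17 CPM and Bcam at 0.506 to 5.54 CPM. Cpe was at 0 in MD+CA 3.

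Cd24a encodes a small glycoprotein of the surface of progenitor cells, cholangiocytes and B cells. It was at 1.29, 1.39, 1.14 and 2.33 CPM in MD+CA, 2.24, 1.53, 13.9 and 3.34 CPM in MD, and 1.22, 1.11, 2.33 and 1.74 CPM in CD. MD 3, with 185 reads, was the highest of all 12 libraries, and MD 4 came next. edgeR put the log2 fold change at -1.76 ± 0.58 in MD+CA against MD and 1.72 ± 0.58 in MD against CD. Without MD 3 it was -0.61 ± 0.41 and 0.56 ± 0.41. MD+CA against CD gave -0.04 ± 0.60, with an interval of -1.33 to 1.24. B cell markers summed to 2.79 to 6.49 CPM in MD+CA, 2.07 to 13.9 CPM in MD and 3.65 to 5.42 CPM in CD, with 0 of 6 at 0 throughout, and their part in the Cd24a values was not tested. The gene nearest to Cd24a was Krt19, at a root mean square difference of 0.52, before Ccdc198 and Unc5b.

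Krt19, the acidic keratin of cholangiocytes, followed Cd24a in MD 3. It was at 3.31, 1.15, 1.14 and 2.94 CPM in MD+CA, 2.59, 2.44, 20.7 and 2.87 CPM in MD, and 2.50, 0.810, 1.70 and 1.53 CPM in CD. MD 3 alone held 275 of its 551 reads, and the other MD libraries lay within the range of MD+CA and close to the top of CD. The log2 fold change was 2.11 ± 0.67 in MD against CD and -1.73 ± 0.66 in MD+CA against MD. Without MD 3 these came to 0.67 ± 0.45 and -0.30 ± 0.45. MD+CA against CD gave 0.37 ± 0.69, with an interval of -1.095 to 1.84. As a share of Krt18, the acidic keratin of hepatocytes, Krt19 was 18.6% in MD 3 and 0.388% to 2.64% in the other libraries on the TPM scale.

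Epcam, the epithelial cell adhesion molecule of bile ducts and fetal progenitors, was at 3.95, 2.29, 4.18 and 3.03 CPM in MD+CA, 3.57, 2.34, 7.89 and 4.30 CPM in MD, and 2.63, 1.92, 5.63 and 3.27 CPM in CD. MD 3 was again the highest library, with CD 3 next, and the groups overlapped. On the log2 scale the fitted change was -0.44 ± 0.39 in MD+CA against MD, -0.01 ± 0.39 in MD+CA against CD and 0.43 ± 0.39 in MD against CD. Without MD 3 the last of these was 0.02 ± 0.37. Epcam-204 held 99.1% of its reads. The genes nearest to Epcam by the same measure, Atp5mc3, Ech1 and Ndufa4, all encode mitochondrial proteins and all were highest in MD 3, with root mean square differences of 0.28 to 0.30.

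Krt7, the basic keratin partner of Krt19 in bile ducts, was at 1.75, 1.72, 0.760 and 2.59 CPM in MD+CA, 2.10, 1.32, 3.15 and 1.11 CPM in MD, and 0.946, 1.22, 1.16 and 1.11 CPM in CD. MD 3 was the highest here too, MD+CA 4 was next, and CD was the tightest group. edgeR put the log2 fold change at -0.16 ± 0.41 in MD+CA against MD, 0.64 ± 0.42 in MD+CA against CD and 0.80 ± 0.42 in MD against CD. Of the 230 reads of Krt7, 41.4% were put on a retained-intron transcript and 43.3% on the long coding one, and MD+CA 2, MD+CA 3, MD 2 and MD 4 had 0 reads on the long one. An offset for the average transcript length, which depends on that division, turned the first value to 0.48 and lowered the last to 0.23. Without MD 3 the first was 0.18 ± 0.43 and the last 0.45 ± 0.44. Lbh, She and Zfp947 were nearest to Krt7, at 0.29 to 0.32.

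Sox9, the transcription factor of the ductal plate, the sheet of fetal cells that forms bile ducts, did not follow this pattern. It had 317, 199, 502 and 131 reads in MD+CA, 155, 165, 229 and 136 in MD, and 172, 185, 206 and 154 in CD. These came to 29.1, 16.3, 63.6 and 11.3 CPM in MD+CA, 10.9, 16.8, 17.2 and 10.8 CPM in MD, and 11.6, 18.7, 18.4 and 10.7 CPM in CD. MD+CA 3 and MD+CA 1 lay above all MD and CD libraries, MD+CA 2 and MD+CA 4 lay within their range, and MD 3 did not stand out. The log2 fold change was 1.105 ± 0.42 in MD+CA against MD, 1.01 ± 0.42 in MD+CA against CD and -0.09 ± 0.42 in MD against CD. Without MD+CA 3, the shallowest library, the first of these was 0.44 ± 0.32 and the next 0.33 ± 0.32.

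The genes nearest to Sox9 over the 12 libraries were Nfil3, a transcriptional repressor of the clock, at a root mean square difference of 0.30, Osgin1, a target of the oxidative stress factor NRF2, at 0.31, and Tanc2 at 0.35. Each was highest in MD+CA 3, at 48.6, 193 and 11.9 CPM, and next highest in MD+CA 1, at 24.2, 89.6 and 9.74 CPM. In MD+CA 3 Clu, a chaperone of blood and bile, was at 1415 CPM, against 317 to 898 CPM elsewhere, and S100a9, a neutrophil protein, at 12.4 CPM, against 0 to 3.60 CPM elsewhere. The part of neutrophils in the Sox9 values was not tested: their 8 markers summed to 2.16 to 18.99 CPM in MD+CA, 2.79 to 6.01 CPM in MD and 1.62 to 3.67 CPM in CD, with Ly6g at 0 in all.

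**Figure D2:**
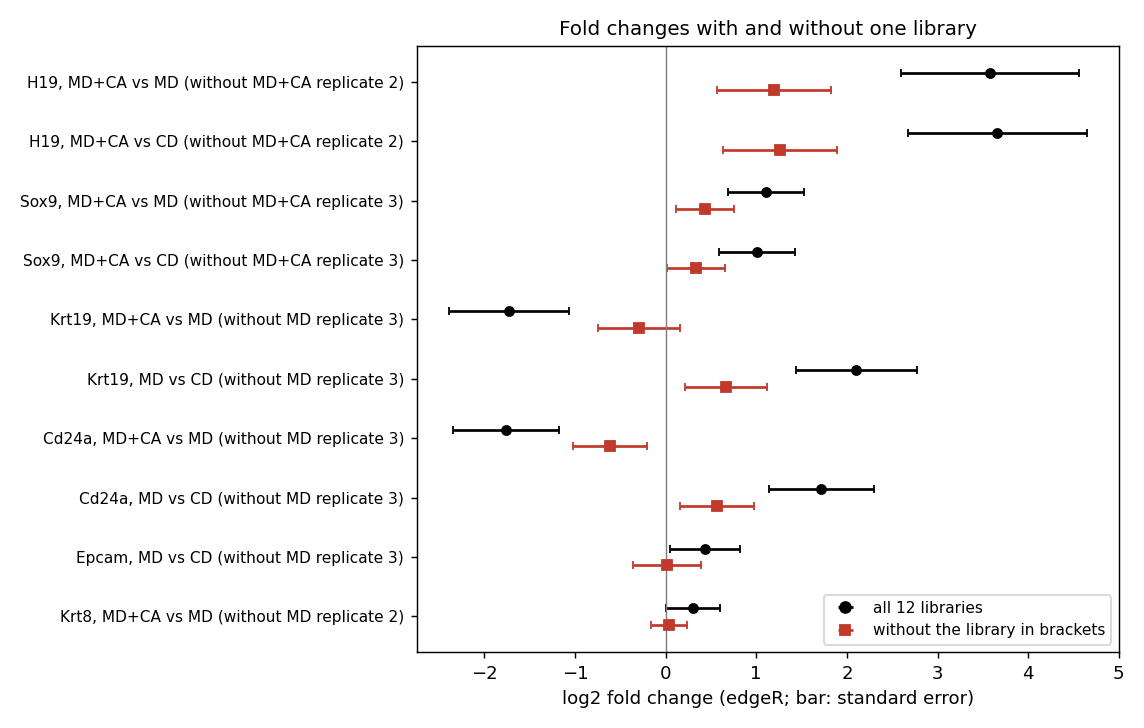
log2 fold change of 6 genes with all 12 libraries (black circles) and without the single library named on the left (red squares), with bars for the standard error. H19 in MD+CA against MD moved to 1.19 without MD+CA 2, against 3.58 with it, and Krt19 in MD against CD to 0.67 without MD 3, against 2.11 with it.

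In CPM, MD 3 was thus the highest of 12 libraries for Cd24a, Krt19, Epcam and Krt7. On the TPM scale Krt7 was highest in MD+CA 2, at 2.17 TPM, against 1.84 TPM in MD 3. Of 26 other bile duct genes listed, 8 were highest in MD 3 as well in CPM, where 4.03% of all tested genes were. These were Muc1, a membrane mucin, at 5.93 CPM, Cldn7, a tight junction protein, at 4.43 CPM, Tspan8, a tetraspanin, at 5.26 CPM, the epithelial transcription factors Ehf and Elf3 at 5.11 and 2.48 CPM, the water channel Aqp1 at 31.6 CPM, Vtcn1 at 1.28 CPM and Ggt1 at 0.376 CPM. They are named because they were highest in that library and carry no test. Of these, Muc1, Cldn7 and Ggt1 did not pass the low-count filter, while the 4.03% is over genes that passed it. Ggt1 had 5 reads in MD 3, and Vtcn1 had 17 there, against 15 in MD+CA 2. Spp1, osteopontin, was at 87.0 CPM in MD 3, inside its range of 47.0 to 128 CPM over the other libraries.

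Genes of other tissues were read in MD 3 as well. Ctrb1, a digestive proenzyme of the pancreas, had 28 reads there, 4 in MD 4 and 0 in the other 10 libraries. Of the 7 pancreas and gut markers 2 were highest in MD 3, Ctrb1 and Vil1, the latter with 8 reads. The pancreas genes Prss2, Pnlip and Cpa1 had 0 reads there, and Cela1 had 127 reads, against 202 in MD 1. Acta2, smooth muscle actin, was at 19.7 CPM in MD 3 and at 0.127 to 6.72 CPM elsewhere, and the smooth muscle gene Tagln, at 26.7 CPM, was among the 3 genes nearest to Krt19, after Tnnt2, a cardiac troponin at 14.6 CPM in MD 3, and Cd24a. The 7 pancreas and gut markers summed to 68.6 to 138 CPM in MD+CA, 88.2 to 232 CPM in MD and 78.1 to 104.3 CPM in CD, of which Fabp2 made up 92.3%. The 8 stellate cell and matrix markers summed to 46.5 to 128 CPM in MD+CA, 99.1 to 117 CPM in MD and 76.6 to 89.5 CPM in CD, and the 7 mesothelial markers to 1.01 to 12.0 CPM, 4.73 to 11.1 CPM and 3.06 to 7.77 CPM in the same groups. In MD 3 the pancreas and gut sum was 175.5 CPM, the stellate and matrix sum 113 CPM and the mesothelial sum 4.73 CPM. Of the 8 stellate cell and matrix markers 1 was highest there, Acta2. The part of such tissue in the Krt19 and Cd24a values was not tested.

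**Figure D3:**
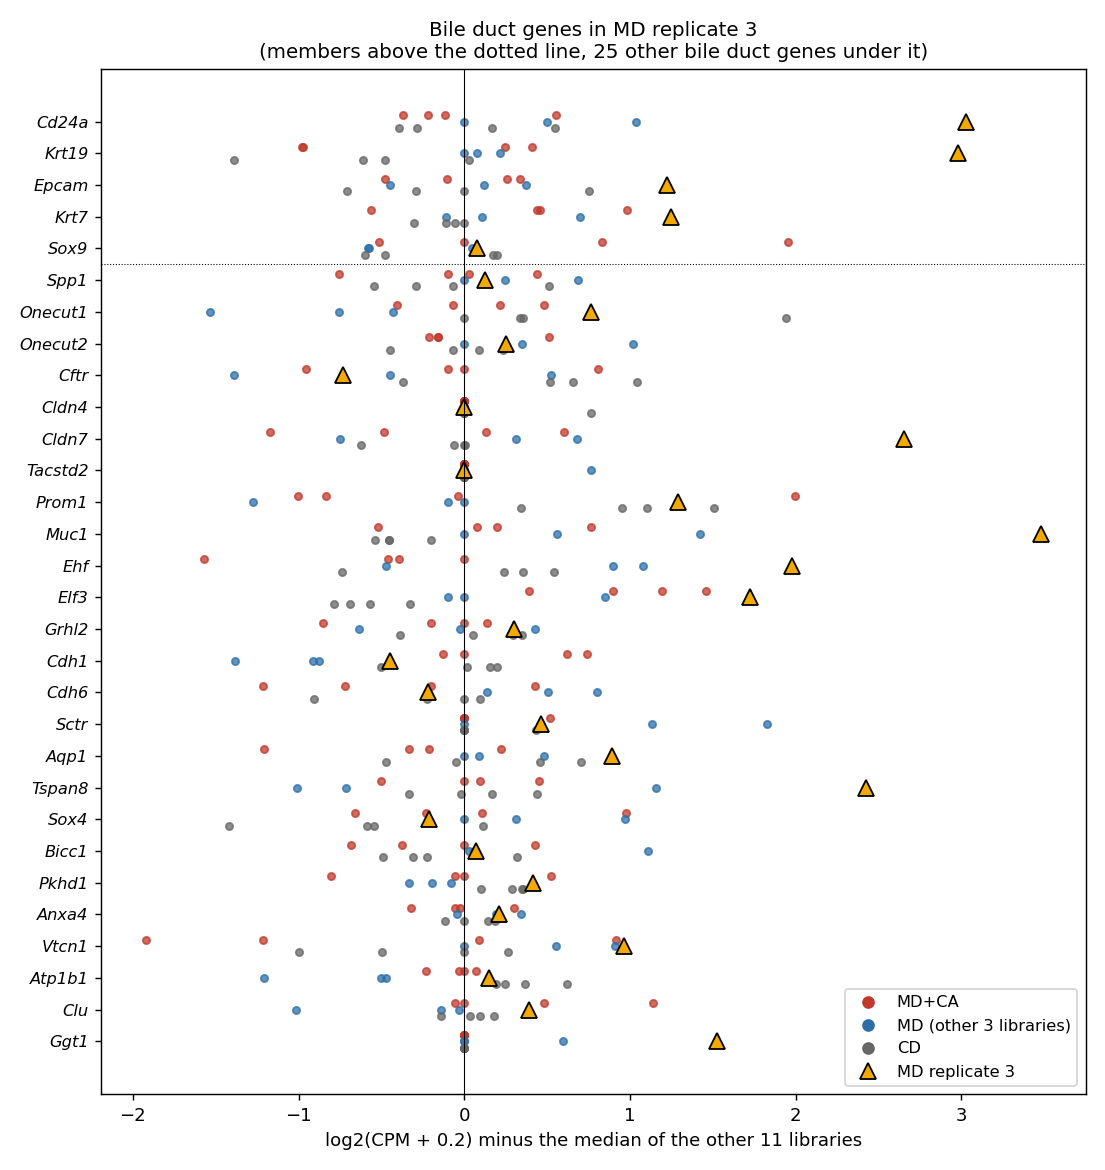
Level of 5 of the 10 genes (above the dotted line) and of 25 of the 26 other bile duct genes, as log2(CPM + 0.2) minus the median of the 11 libraries other than MD 3. Triangles mark MD 3 and circles the other libraries by group. Cd24a, Krt19, Muc1, Cldn7 and Tspan8 lie more than 2 log2 units up in MD 3, while Sox9 and Spp1 do not stand out there.

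Krt8 and Krt18 form the filaments that brace hepatocytes, and Krt8 is the type II and Krt18 the type I member. Krt8 was at 249, 257, 262 and 256 CPM in MD+CA, 206, 83.2, 266 and 275 CPM in MD, and 203, 286, 175 and 203 CPM in CD. The MD+CA libraries were the closest to each other, 256 ± 5.32 CPM (SD, n = 4), against 208 ± 88.5 CPM in MD and 217 ± 47.9 CPM in CD, and MD 2 was by far the lowest. On the log2 scale the fitted change was 0.30 ± 0.30 in MD+CA against MD, 0.24 ± 0.30 in MD+CA against CD and -0.06 ± 0.30 in MD against CD. Without MD 2, the library with 17.5% mitochondrial reads and 22.5% of all tested genes at their highest, the first of these was 0.04 ± 0.20 and the last 0.20 ± 0.20. The 3 genes nearest to Krt8 were Psmd14, a proteasome subunit, Lsm3, an RNA-binding protein, and Ppa2, a mitochondrial pyrophosphatase, and each was lowest in MD 2, at 20.0, 5.29 and 45.9 CPM.

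Krt18 was at 240, 148, 340 and 151 CPM in MD+CA, 255, 232, 157 and 173 CPM in MD, and 151, 149, 163 and 165 CPM in CD. MD+CA 1, MD+CA 3, MD 1 and MD 2 lay above the rest, so both MD+CA and MD were split, while CD was narrow at 157 ± 8.07 CPM (SD, n = 4). edgeR put the log2 fold change at 0.11 ± 0.27 in MD+CA against MD, 0.48 ± 0.27 in MD+CA against CD and 0.38 ± 0.27 in MD against CD, with intervals of -0.46 to 0.67, -0.08 to 1.05 and -0.19 to 0.94. The first of these was -0.19 without MD+CA 3. Thyn1, Dynlrb1 and Acbd4 were nearest to Krt18, at root mean square differences of 0.17 to 0.21.

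The protein pair assembles in equal amounts, and on the TPM scale Krt8 over Krt18 was 0.884, 1.53, 0.700 and 1.45 in MD+CA, 0.685, 0.309, 1.48 and 1.32 in MD, and 1.13, 1.69, 0.958 and 1.03 in CD. The ratio was under 1 in the 4 libraries with the highest Krt18 and in CD 3, and it was lowest in MD 2, where Krt18 was high at 130 TPM and Krt8 low at 40.1 TPM. Group means were 1.14 ± 0.41 in MD+CA, 0.950 ± 0.549 in MD and 1.20 ± 0.335 in CD (SD, n = 4 each), and the groups overlapped. The summed pair was 267 ± 36.1 TPM in MD+CA, 217 ± 31.7 TPM in MD and 209 ± 20.4 TPM in CD. Reads of the processed copy Krt8-ps, with which Krt8 can share reads, came to 0.215% of those of Krt8.

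**Figure D4:**
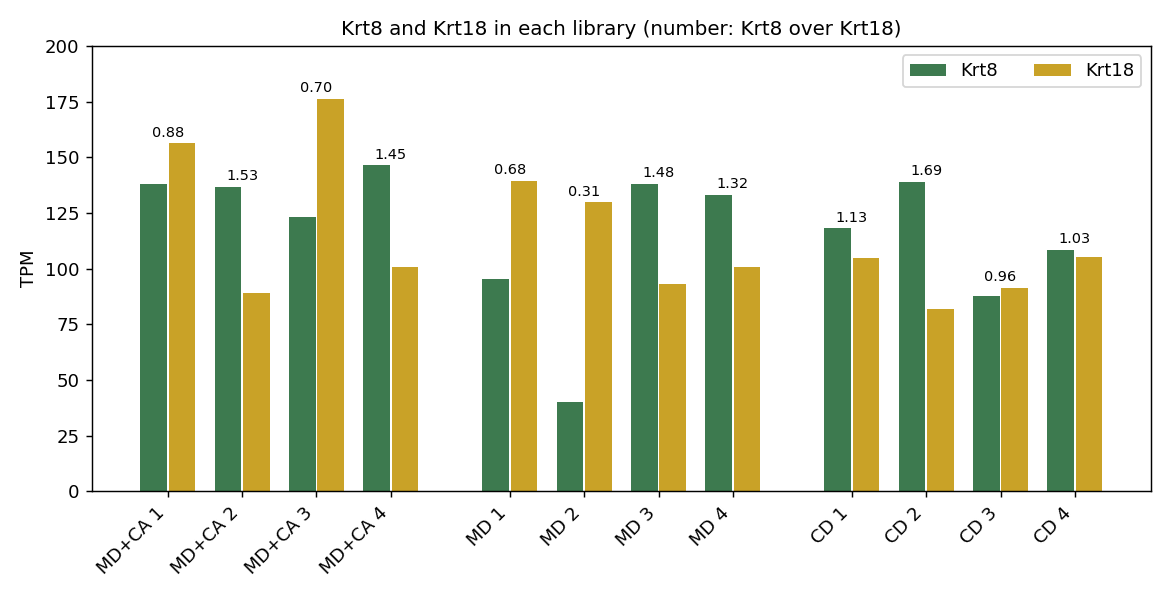
Krt8 and Krt18 in each library as bars in TPM from 0, with Krt8 over Krt18 written above each pair, for MD+CA, MD and CD from left to right. The ratio runs from 0.31 in MD 2 to 1.69 in CD 2, and Krt18 is above Krt8 in MD+CA 1, MD+CA 3, MD 1, MD 2 and CD 3.

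Krt8 and Krt18 are neighbours on chromosome 15 in RefSeq (GRCm38.p6), where Krt18 is the type I gene that sits in the type II keratin cluster, and their levels diverged in MD 2. Their promoters are shown to compare the sequence at both starts, 250 bases before and 50 after the RefSeq start, build GRCm38.p6. Krt8 lies on the minus strand at chr15:102004293-102004592 and Krt18 on the plus strand at chr15:102027966-102028265. Capitals mark TATAAA on either strand, where 2 overlapping matches merge in Krt8 and Krt18 has none.
Krt8: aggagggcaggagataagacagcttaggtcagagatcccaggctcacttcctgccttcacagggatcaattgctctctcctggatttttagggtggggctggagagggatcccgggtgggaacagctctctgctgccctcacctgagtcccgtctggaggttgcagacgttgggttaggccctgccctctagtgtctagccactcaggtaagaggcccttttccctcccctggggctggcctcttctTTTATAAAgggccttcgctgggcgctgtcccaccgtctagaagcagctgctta
Krt18: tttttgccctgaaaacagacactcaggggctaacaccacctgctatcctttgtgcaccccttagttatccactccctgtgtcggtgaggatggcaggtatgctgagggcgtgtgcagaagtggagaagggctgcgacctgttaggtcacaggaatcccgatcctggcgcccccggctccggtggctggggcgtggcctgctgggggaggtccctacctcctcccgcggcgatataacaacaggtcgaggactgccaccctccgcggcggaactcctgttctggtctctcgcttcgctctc

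Promoters of 6 of the 10 genes were found in the RefSeq table (Afp, Gpc3, Epcam, Krt7, Krt8 and Krt18). TATAAA occurred in those of Afp and Krt8, and in 13.6% of all 32851 promoters of that length. The GC box GGGCGG, also on either strand, occurred in Gpc3 and Krt7 with 4 matches each and in Epcam with 1, and in 35.7% of all promoters. Krt18 held neither, with 17 CpG pairs, against 6 in Krt8 and a median of 7 over all promoters.

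The other genes of these programmes were listed in 7 groups, and 71 of them were tested. In MD+CA against MD 6 of 71 passed the edgeR threshold, 4 higher and 2 lower, in MD+CA against CD 2, both higher, and in MD against CD 0. Of all tested genes 2.71%, 0.528% and 0.088% passed in these comparisons. In the same order 17, 13 and 20 of 71 had an unadjusted p under 0.05, beside 23.2%, 10.5% and 19.9% of all tested genes. DESeq2 passed 10, 3 and 9 of the 71, beside 9.02%, 2.46% and 4.98% of all genes with an adjusted p in DESeq2. limma voom passed 5, 2 and 2, beside 2.48%, 1.3% and 2.23% of all tested genes. The median log2 fold change of the 71 genes was -0.06 in MD+CA against MD, 0.03 in MD+CA against CD and 0.14 in MD against CD. Without MD+CA 2, MD 2 and MD 3 together, an alternative chosen after seeing the data, 0 of 71 passed in MD+CA against MD and Axl alone in MD+CA against CD. Over all genes 10 and 18 then passed in these comparisons, against 369 and 72 with all 12 libraries, so the loss was not particular to the 71.

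Of 19 fetal liver and oncofetal genes, 8 were tested and 2 were higher in MD+CA against MD. Lpl, lipoprotein lipase, which fetal liver makes and adult liver mostly lacks, was at 91.5 ± 36.6 CPM in MD+CA, 27.8 ± 6.24 CPM in MD and 28.1 ± 6.28 CPM in CD (SD, n = 4 each). It rose by 1.72 ± 0.28 on the log2 scale in MD+CA against MD (edgeR adjusted p = 0.012) and by 1.71 ± 0.28 in MD+CA against CD (edgeR adjusted p = 0.0138), and every MD+CA library was above every library of the other groups. Igf2bp2, an RNA-binding protein of fetal and tumour cells, rose by 1.60 ± 0.37 in MD+CA against MD (edgeR adjusted p = 0.0344), at 2.75 ± 0.99 CPM in MD+CA and 0.895 ± 0.160 CPM in MD. In CD Igf2bp2 was at 1.40 CPM, and MD+CA against CD gave 0.958 ± 0.355 (edgeR adjusted p = 0.295). Over the 12 fits that each left out 1 library, Lpl passed against MD in all (log2 fold change 1.46 to 1.89) and lost its call against CD without CD 1 or CD 4. Igf2bp2, at 1.34 to 1.73 over those 12 fits, lost its call when MD+CA 2, MD+CA 3, MD+CA 4, MD 1, MD 2, MD 4 or CD 1 was the one left out, and with the length offset. Sall4 was at 0 in all 12 libraries. Dlk1, a hepatoblast surface protein, had 3 reads in CD 4 and 0 in every other library, so by the limit of 3 reads it was detected in none.

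Of 13 genes that regulate Afp, H19 or Gpc3, all were tested and Cebpb, a transcription factor of the acute phase response, was lower in MD+CA, at 62.6 ± 9.55 CPM, against 286 ± 130 CPM in MD, a log2 fold change of -2.19 ± 0.43 (edgeR adjusted p = 0.0198). In CD Cebpb was at 114 CPM, and MD+CA against CD gave -0.863 ± 0.415 (edgeR adjusted p = 0.496). Its call was lost without MD+CA 2, MD+CA 3, MD 1 or MD 2, and its values over the 12 fits were -2.39 to -1.92. Zbtb20 and Zhx2, which repress Afp after birth in mice, did not pass, at -0.70 ± 0.29 (edgeR adjusted p = 0.164) and 0.08 ± 0.20 (edgeR adjusted p = 0.851). For MD against CD Zbtb20 was at 0.84 ± 0.29 and Zhx2 at -0.68 ± 0.20, with adjusted p of 0.148 and 0.121 by edgeR, and DESeq2 passed Zhx2, Cebpb and Nr5a2 there.

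Of 26 bile duct genes, 17 were tested, and Cdh1, E-cadherin, strong in bile ducts and in hepatocytes near the portal vein, was the 1 that passed in edgeR, in MD+CA against MD. DESeq2 also passed Ehf in that comparison, Elf3 in MD+CA against CD, and Cdh1 and the sodium pump subunit Atp1b1 in MD against CD, and limma voom passed Cdh1 in MD+CA against MD and Atp1b1 in MD against CD. Cdh1 was at 43.4 ± 12.9 CPM in MD+CA and 18.4 ± 4.87 CPM in MD, a rise of 1.23 ± 0.25 (edgeR adjusted p = 0.0228), and at 33.6 ± 6.85 CPM in CD. Its call was lost without MD+CA 3, MD 1, MD 2 or MD 4, and its values over the 12 fits were 1.08 to 1.41. The tested bile duct genes had a median log2 fold change of -0.19 in MD+CA against MD, 0.007 in MD+CA against CD and 0.30 in MD against CD. Their summed level was 1047 to 1991 CPM in MD+CA, 920 to 1403 CPM in MD and 1045 to 1291 CPM in CD, of which Clu made up 58.8%.

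Of 12 genes of the growth regulators YAP and TAZ and their targets, which can turn adult hepatocytes toward ductal fates in mice, Axl, a receptor tyrosine kinase, was at 20.9 ± 2.04 CPM in MD+CA, 9.91 ± 1.76 CPM in MD and 8.97 ± 1.09 CPM in CD. It rose by 1.08 ± 0.18 in MD+CA against MD (edgeR adjusted p = 0.0145) and by 1.22 ± 0.18 in MD+CA against CD (edgeR adjusted p = 0.00902). Ccn1, a matrix protein, was lower in MD+CA than in MD, at 9.53 ± 1.77 CPM, against 41.1 ± 29.3 CPM, a log2 fold change of -2.10 ± 0.44 (edgeR adjusted p = 0.0233). In CD Ccn1 was at 10.4 CPM, and MD+CA against CD gave -0.13 ± 0.43. The MD libraries were uneven, with 782 and 738 reads of Ccn1 in MD 1 and MD 2 and 134 in MD 4. Axl kept both calls whichever library was left out (0.98 to 1.19 against MD and 1.16 to 1.30 against CD) and lost both with the length offset. Ccn1 lost its call without MD+CA 2, MD+CA 3, MD+CA 4, MD 1 or MD 2, and its values over the 12 fits were -2.42 to -1.64.

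None of the 10 tested Notch pathway genes, which direct hepatoblasts to bile ducts, passed in any comparison by edgeR, where 1, 1 and 3 had an unadjusted p under 0.05 in MD+CA against MD, MD+CA against CD and MD against CD. Hes1, a Notch target, was at -1.08 ± 0.32 in MD+CA against MD (edgeR adjusted p = 0.0708), and DESeq2 passed it there and in MD against CD. Of 14 other keratins 2 were tested, none passed by edgeR, DESeq2 or limma voom, 1 had an unadjusted p under 0.05 (Krt23 in MD against CD, by edgeR), and Krt1, Krt5, Krt13, Krt15 and Krt17 were at 0 in all 12 libraries. Krt23, a stress-induced keratin of the liver, ran from 0.633 to 16.2 CPM in MD+CA, 2.17 to 12.3 CPM in MD and 0.203 to 2.50 CPM in CD. None of 9 filament partners passed by edgeR, with 3 at an unadjusted p under 0.05 in each comparison. DESeq2 passed Dsp and Tgm2 in MD+CA against MD and Dsp and Plec in MD against CD, and limma voom passed Dsp in MD against CD. Among them Tgm2, a protein-crosslinking enzyme, was at 0.80 ± 0.22 in MD+CA against MD (edgeR adjusted p = 0.057) and Dsp, desmoplakin, which anchors keratin filaments at desmosomes, at 1.35 ± 0.39 (edgeR adjusted p = 0.0686). Across the 10 proliferation genes, 5 were tested. None of these passed by edgeR, nor did any tested hepatocyte, stellate, mesothelial, B cell, neutrophil, erythroid and pancreas or gut marker, with 0 to 3 genes a list at an unadjusted p under 0.05 in a comparison. DESeq2 passed 0 of them as well, and limma voom passed Fabp2 in MD against CD.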

How the data were processed

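Poly(A)-selected RNA of frozen liver was sequenced from 12 libraries, 4 per group, as the labels' protocols state. Tools listed are fastp, Salmon 1.10.3 and DESeq2, with build GRCm39, per the submitters' processing notes. Salmon's options, annotation and strand handling were not given in the sources used here. Each deposited table lists 147556 transcripts with expected counts, which are estimated reads per transcript and not normalized, and with TPM values scaled for length and depth, per the file headers. Transcripts were used as the authors named them.

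Expected counts were summed over the transcripts of a gene and rounded to whole numbers, giving 56065 genes and 9089586 to 14492587 reads per library. edgeR 4.0.16 filterByExpr (minimum count 10) left 13631 genes, TMM factors scaled the libraries, and 1 quasi-likelihood model with 3 group means and no covariate was fitted to all 12 (9 residual degrees of freedom, common dispersion 0.308 as a coefficient of variation). The Benjamini-Hochberg adjustment of p-values ran over all of these genes. The standard error is the log2 fold change over the square root of its F statistic, and intervals are at 95%. TPM, summed per gene, was used to compare genes. Intervals and the limit of 3 reads cover counting and spread between libraries only, and the labels state no molecular identifiers. The steps were tested on simulated counts. No pair of libraries agreed within sampling noise.

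The 10 genes, the lists and the tests were chosen with earlier results of these data known. All 10 are named, and for each of the 9 tested genes the 3 of 11927 genes with the smallest root mean square difference of centred log2 CPM (prior count 2). From the 7 groups of related genes, those that passed by edgeR are named, or else some with a small p. The lists of cell type markers and of family members were not named by p, and genes left unnamed there can have a smaller p than named ones. Genes highest in MD 3, neighbouring genes, other glypican genes and the markers given beside a result were chosen after their values were seen. Sequences are from RefSeq tables of GRCm38.p6, which is not the authors' build, so no coordinates are given for the counts. One gene of the bile duct list enters its counts and medians and is not reported by itself. Alternatives were RLE and upper-quartile scaling, DESeq2 1.42.0, limma voom 3.58.1 with sample weights, no filter, a transcript length offset, only the groups compared, the replicate number as a block and leaving out each library. R 4.3.3, Python 3.11.15, numpy 2.4.6, pandas 2.3.3, scipy 1.17.1 and matplotlib 3.10.9 were used.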

Additional observations from a re-analysis of the deposited data

Results flagged for a closer look

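The CPM of the 9 tested genes and the Krt8 over Krt18 ratio in TPM were screened in the 3 groups, 30 sets of 4 libraries. Afp was not screened. A value was flagged where its gap to the nearest library, as a share of the group's range, was past Dixon's 95% limit for 4 values. That held for 3 values. Chance alone passes that limit in about 1 of 20 groups. The genes were chosen with these values known, so the limit is used here as a description and not as a test. H19 was at 82.1 CPM in MD+CA 2, where the next MD+CA library was at 8.54 CPM. Cd24a was at 13.9 CPM in MD 3, where the next MD library was at 3.34 CPM. Krt19 was at 20.7 CPM in MD 3, where the next MD library was at 2.87 CPM. The last pair comes from the same library, and the cause was not tested in any of them.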

How the results depend on the processing

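The number of the 9 genes passing moved in the 3 comparisons (MD+CA against MD, MD+CA against CD, MD against CD; 0, 0 and 0 in edgeR with all libraries). DESeq2 gave 2, 1 and 1 and no low-count filter 4, 1 and 2, and leaving out a library gave 0 to 1, 0 to 1 and 0, the 1 being H19 without MD+CA 1 or MD+CA 4 (against CD, without MD+CA 4 only). Of the log2 fold changes of these genes under the alternatives, 553 stayed within the spread between libraries and 14 moved beyond it. The moved ones, beside those in the report, came without MD+CA 2, MD 2 and MD 3 together, an alternative chosen after seeing the data: H19 0.68 in MD+CA against MD and 1.25 against CD, Cd24a -0.78 in MD+CA against MD and 0.78 in MD against CD, and Krt19 -0.12 and 0.70 in the same comparisons as Cd24a. Of the related genes 6, 2 and 0 passed. In MD+CA against MD the count was 10 with DESeq2, 11 without the filter, 3 with only both groups, 0 without those 3 libraries and 2 to 9 leaving out a library. In MD+CA against CD it was 1 with the length offset, 1 without those 3 libraries and 1 to 2 leaving out a library. In MD against CD it was 9 with DESeq2, 2 with voom, 7 without the filter and 0 to 1 leaving out a library. Over all genes 369, 72 and 12 passed. DESeq2 gave 1203, 334 and 638, no filter 1017, 390 and 481, the length offset 191, 34 and 2, only both groups 90, 43 and 36, and leaving out those 3 libraries 10, 18 and 0. Voom gave 177 in MD+CA against CD and 304 in MD against CD. Leaving out a library gave 109 to 963, 17 to 169 and 0 to 26. The cause was not tested. At 4 reads or fewer per library, changes of Afp cannot be seen at this depth.

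The replicate numbers are shared by the groups. Of 12 same-numbered pairs, 8 deviated together with a correlation over 0.1 (range -0.079 to 0.35), and 6 of 12 libraries correlated best with their own number in both other groups, a hint from the data and not from the design. The labels tie the numbers to no shared animal, batch or day and not every pair was over 0.1, so the fit without the block was kept. With the replicate block 664, 154 and 12 genes passed in the 3 comparisons, with 0 of the 9 genes in each and 7, 2 and 0 of the related genes.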
